A study of Drosophila melanogaster with 5 samples.

Results

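The cytosolic ribosomal protein genes of Drosophila were followed in larvae that lack the C2H2 zinc finger protein Mzfp1, encoded by CG1603. They were chosen by symbol, as all genes whose name starts with RpL or RpS and a digit or with RpLP, together with stubarista (sta), and 92 of the 17735 counted genes met this rule. RpS12 is not analysed here, since the current identifier of the gene matched none in the count table. The rule uses names only and no measured value. The 92 members comprised 50 genes of the large subunit, 38 genes of the small subunit and 4 genes of the P stalk with its relatives.

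Poly(A) RNA-seq of whole third-instar larvae gave 3 libraries of CG1603attP and 2 libraries of y1w1118, and the paper calls them biological replicates. CG1603attP (Mzfp1_attP in the sample titles) carries an attP site and a 3P3:dsRed reporter in place of most of CG1603. It is written with the yellow and white mutations of y1w1118, the control. The paper places the CRISPR/Cas9 deletion in y1w1118, while its methods describe injection into embryos of another stock followed by a cross to a y1w1118; CyO balancer line, so how far the 2 groups share the rest of the genome is not given in the sources used here. The mutant larvae were homozygous offspring of heterozygotes balanced over CyO,GFP, and the homozygotes die in the second or the third instar. The mutant is 1 deletion line, and the number of larvae in each extraction, their age in hours and their sex are not given in the sources used here.

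Each cytosolic ribosome contains ribosomal RNA and 1 copy of nearly all its proteins, with the acidic stalk proteins as the main exception, so the members encode parts of 1 machine. Most are single-copy genes with very abundant transcripts, and in Drosophila the loss of 1 copy of many of them gives the Minute phenotype of slow development and thin bristles. Several have a paralog that is used mainly in the gonads or that has become a ribosome assembly factor. RpL32 mRNA is a widely used reference transcript for RT-qPCR in flies, and it was the reference of the RT-qPCR in the paper. The pair of primers used there, taken from the primer list of the study and credited to it, is shown because each RT-qPCR value rests on the level of this transcript. In the paper's captions that RT-qPCR covered y1w1118, a pBac insertion allele of CG1603 and Mzfp1 transgenes. Homozygous CG1603attP larvae are not named there, so the paper's RT-qPCR and these libraries differ in genotype. In dm6, RpL32 spans 30045229 to 30046161 on chromosome 3R, minus strand.
rpl32_dir: gttcgatccgtaaccgatgt
rpl32_rev: ccagtcggatcgatatgctaa

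Between 9044930 and 14514277 reads per library were analysed. CG1603 itself had 0, 0 and 3 reads in the CG1603attP libraries, against 124 and 102 reads in the y1w1118 libraries. Across 11045 genes tested with edgeR's quasi-likelihood test and Benjamini-Hochberg adjustment, 1735 were lower and 1618 higher in CG1603attP at an adjusted p under 0.05, and the median log2 fold change was -0.011. The larvae differed in other ways too. All 10 muscle markers tested fell, with a summed level of 20380, 26534 and 26832 CPM in CG1603attP, against 86388 and 79730 CPM in y1w1118, where CPM is the read count of a gene in relation to the size of its library, with TMM scaling. Of 14 proliferation markers 10 fell (4 and 5 without y1w1118 replicates 1 and 2), with 81.4, 107 and 126 CPM in CG1603attP against 477 and 475 CPM in y1w1118, of the 7 fat body markers tested 4 fell (of 10, their sums ran from 4820 to 7269 CPM against 23488 and 24683 CPM), and of 10 neuronal markers 4 rose (1 without y1w1118 replicate 1 or without replicate 2, sums from 1474 to 1768 CPM against 1101 and 1154 CPM). Moult and cuticle markers set CG1603attP replicate 1 (2249 CPM, against 173 and 227 CPM in the other mutant libraries) and y1w1118 replicate 2 (1634 CPM, against 655 CPM in replicate 1) apart from the libraries of their own genotype. Of the 16 moult and cuticle markers tested 4 fell and 0 rose. Among those that fell, Lcp3 had 0, 0 and 0 reads in CG1603attP against 228 and 238 reads in y1w1118.

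The members took a larger share of the RNA in the mutant. They held 14.4%, 12.5% and 14.97% of the analysed reads in CG1603attP replicates 1, 2 and 3, against 9.30% and 8.87% in y1w1118 replicates 1 and 2. All 3 mutant libraries lay above both control libraries. The genes of mitochondrial ribosomal proteins, which build the separate ribosome of mitochondria, went the other way. They held 0.0946%, 0.110% and 0.107% of the reads in CG1603attP, against 0.223% and 0.227% in y1w1118. Ribosomal RNA, left out of these shares, made up 3.40%, 4.57% and 3.73% of the gene reads in CG1603attP against 8.04% and 9.62% in y1w1118, but poly(A) selection removes most of it, so this is not a level of ribosomal RNA in the larvae. A share of reads in whole larvae cannot tell more RNA per cell from more cells, or more tissue, of a type that is rich in it, and the part of the muscle, fat body, proliferation and neuronal differences in these values was not tested.

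**Figure D1:**
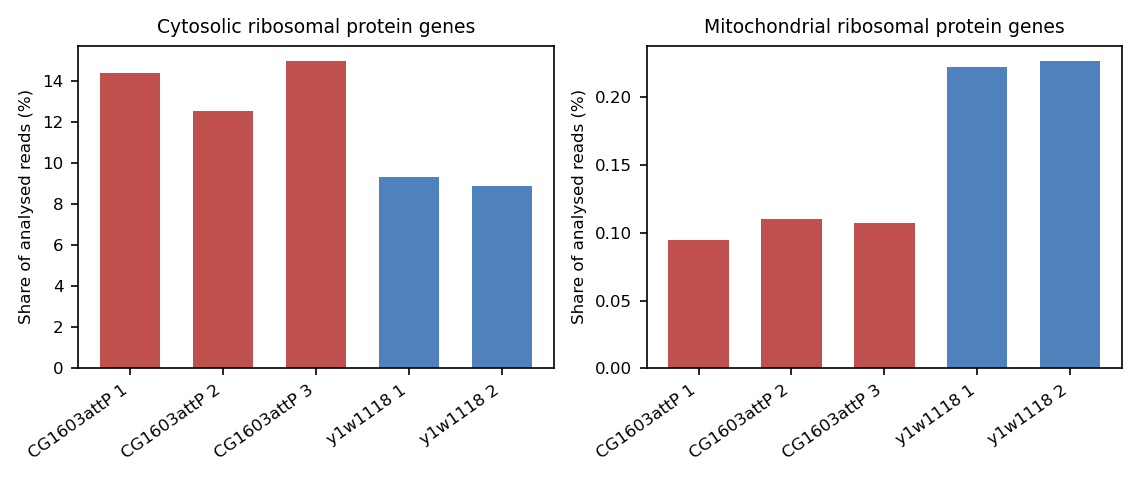
Share of the analysed reads (%, y axis) in each library, 1 bar per library, for cytosolic (left) and mitochondrial (right) ribosomal protein genes. The cytosolic genes held 12.5% to 14.97% in CG1603attP and 8.87% to 9.30% in y1w1118, and the mitochondrial genes 0.0946% to 0.110% in CG1603attP and 0.223% to 0.227% in y1w1118.

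Of the 92 members, 87 had enough reads to be tested. In CG1603attP 28 were higher, 2 were lower and 57 were not called. The background was 14.6% of all genes called higher and 15.7% called lower, so the members were called higher in 32.2% and lower in 2.30%. At an unadjusted p under 0.05, 54 members were higher and 4 lower. Their median log2 fold change was 0.45, with 74 positive and 13 negative values. Every mutant library lay above every control library in 60 members (69.0%, against 28.9% of all genes tested), and below in 7, against 30.8% of all genes.
The number called depended on the libraries. Without CG1603attP replicate 1 it was 17 higher and 2 lower (1257 and 1512 of all 10699 genes tested). Without CG1603attP replicate 2 it was 54 and 2 (1624 and 1629 of 10707), and without replicate 3 it was 19 and 1 (1738 and 1802 of 10944). Leaving out a y1w1118 library left a lone control, and most calls were lost among the members and among all genes. In those fits the members were not called higher more often than all genes. Their median log2 fold change was 0.55 without y1w1118 replicate 1 and 0.38 without replicate 2. The median log2 fold change stayed between 0.38 and 0.57 in these 5 fits. With library size as the only scaling, 58 were higher and 1 lower, but that scaling raised the median of all genes to 0.13, and the split of all genes moved to 2080 higher and 1424 lower; the median of the members stood 0.46 above that of all genes under both scalings.

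In 13 sets the members are paralogs of each other. In each set the gene with most reads in y1w1118 was taken as the major copy, which left 78 single-copy or major genes and 14 minor paralogs. All 78 were tested. Their median log2 fold change was 0.46, the middle 50% of values lay between 0.31 and 0.75, and the range was from -0.43 to 1.42. Of the 78, 26 were called higher and 0 lower (edgeR, adjusted p under 0.05); at an unadjusted p under 0.05 there were 52 higher and 1 lower, and DESeq2 called RpL41 lower (adjusted p = 0.0077). The 26 called genes were 1.37 to 2.68 times higher, with a median of 1.74.

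**Figure D2:**
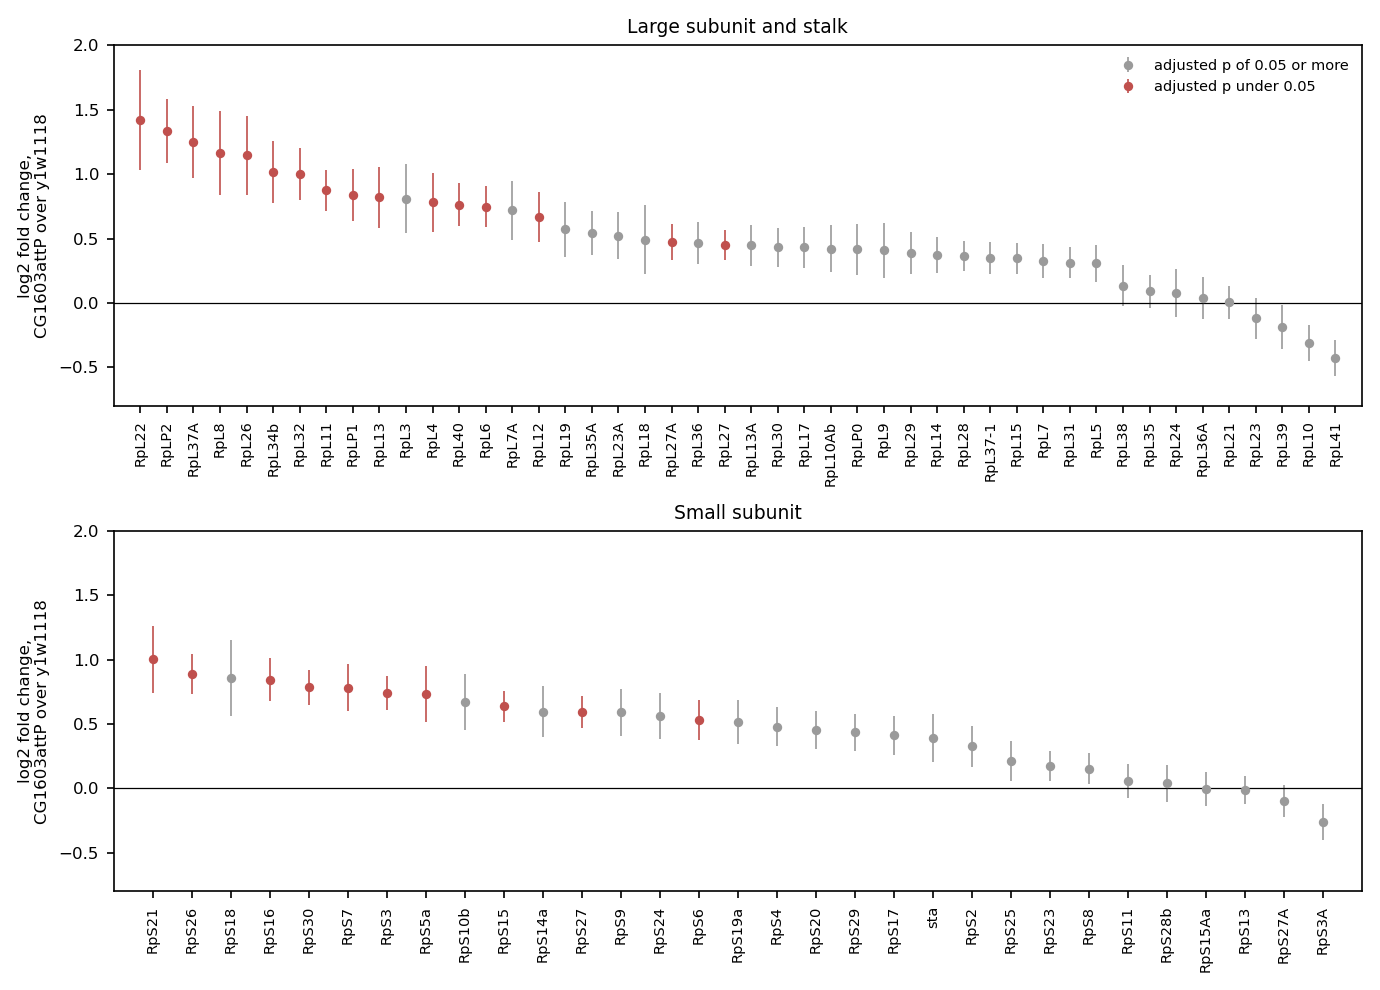
Log2 fold change of CG1603attP over y1w1118 (y axis, bars are standard errors) for 77 of the 78 single-copy or major members, ordered within the large subunit with the stalk (top) and within the small subunit (bottom). Red points have an adjusted p under 0.05. The values ran from 1.42 for RpL22 to -0.43 for RpL41, and no red point lies below 0.

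The stalk of the large subunit recruits elongation factors. RpLP2, one of its acidic proteins, had 2294, 1581 and 2654 CPM in CG1603attP, against 965 and 758 CPM in y1w1118. The 3 mutant libraries were all above both control libraries, although replicate 2 was the lowest of them. RpLP2 rose 2.53-fold (log2 fold change 1.34, SE 0.25, adjusted p = 0.0088 in edgeR). RpLP1, its partner in the stalk, rose by less, to 2377 ± 458 CPM in CG1603attP, against 1327 ± 196 CPM in y1w1118 (SD, n = 3 and 2; log2 fold change 0.84, adjusted p = 0.022). RpLP0, which anchors both to the ribosomal RNA, had 2757, 2074 and 3094 CPM against 2121 and 1835 CPM. The groups overlapped for RpLP0, which was not called (log2 fold change 0.42, adjusted p = 0.163).

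In the large subunit 14 of 44 single-copy or major genes rose, with a median log2 fold change of 0.44 over the 44. RpL22 (2.68-fold, the largest value of the 78), whose fly protein carries a long N-terminal extension, had 660, 299 and 697 CPM in CG1603attP, against 249 and 163 CPM in y1w1118. Replicate 2 of the mutant was close to the higher control library, and the call was held at an adjusted p of 0.035, with a log2 fold change of 1.42 (SE 0.39). It was lost with the robust fit of edgeR (adjusted p = 0.064) and without either of CG1603attP replicates 1 (0.076) and 3 (0.070) or of y1w1118 replicates 1 (0.083) and 2 (0.196). RpL37A had 341, 253 and 488 CPM against 167 and 136 CPM, and RpL8, which lies close to the peptidyl transferase centre, had 2488, 1364 and 2789 CPM against 1138 and 836 CPM. RpL26 had 1101, 621 and 1178 CPM in CG1603attP, against 512 and 362 CPM in y1w1118. In each of these the mutant libraries lay above the controls, with replicate 2 the lowest mutant library. Their log2 fold changes were 1.25 (adjusted p = 0.017) for RpL37A, 1.17 (0.036) for RpL8 and 1.15 (0.032) for RpL26 in edgeR's test. RpL8 and RpL26 were not called without CG1603attP replicate 1 (adjusted p = 0.076 and 0.069) or without replicate 3 (0.068 and 0.062), and all 3 were lost without y1w1118 replicate 1 (RpL37A at 0.072) or replicate 2 (RpL37A at 0.117).

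RpL32, the qPCR reference, rose as well. It had 30375, 22106 and 23762 reads in CG1603attP, against 10544 and 8728 reads in y1w1118, which is 2028, 1606 and 2516 CPM against 1035 and 1013 CPM. The lowest mutant library was above the highest control library. The level was 2.002-fold higher in CG1603attP (log2 fold change 1.002, SE 0.20, adjusted p = 0.012 in edgeR's test). Without y1w1118 replicate 1 the log2 fold change was 1.01 and the adjusted p 0.078, and without replicate 2 they were 0.97 and 0.085; the call was kept in the other 16 alternatives. RpL32 rose above the other members: it took 14.6, 13.8 and 17.0 of every 1000 member reads in CG1603attP, against 10.4 and 10.9 in y1w1118. Only 9 of the other members tested had a larger log2 fold change. Set against 10 genes in common use as references, the gap was wider. None of the 10 was called higher, 6 were lower, and all 10 had a log2 fold change below that of RpL32. Without y1w1118 replicate 1 only 2 of the 10 were called lower. Act5C, a cytoplasmic actin, gave 2.25, 2.76 and 1.96 reads per RpL32 read in CG1603attP, against 4.06 and 3.97 in y1w1118. For betaTub56D, a major beta-tubulin, the ratio was 0.219, 0.233 and 0.170 in CG1603attP, against 1.37 and 1.08 in y1w1118.

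**Figure D3:**
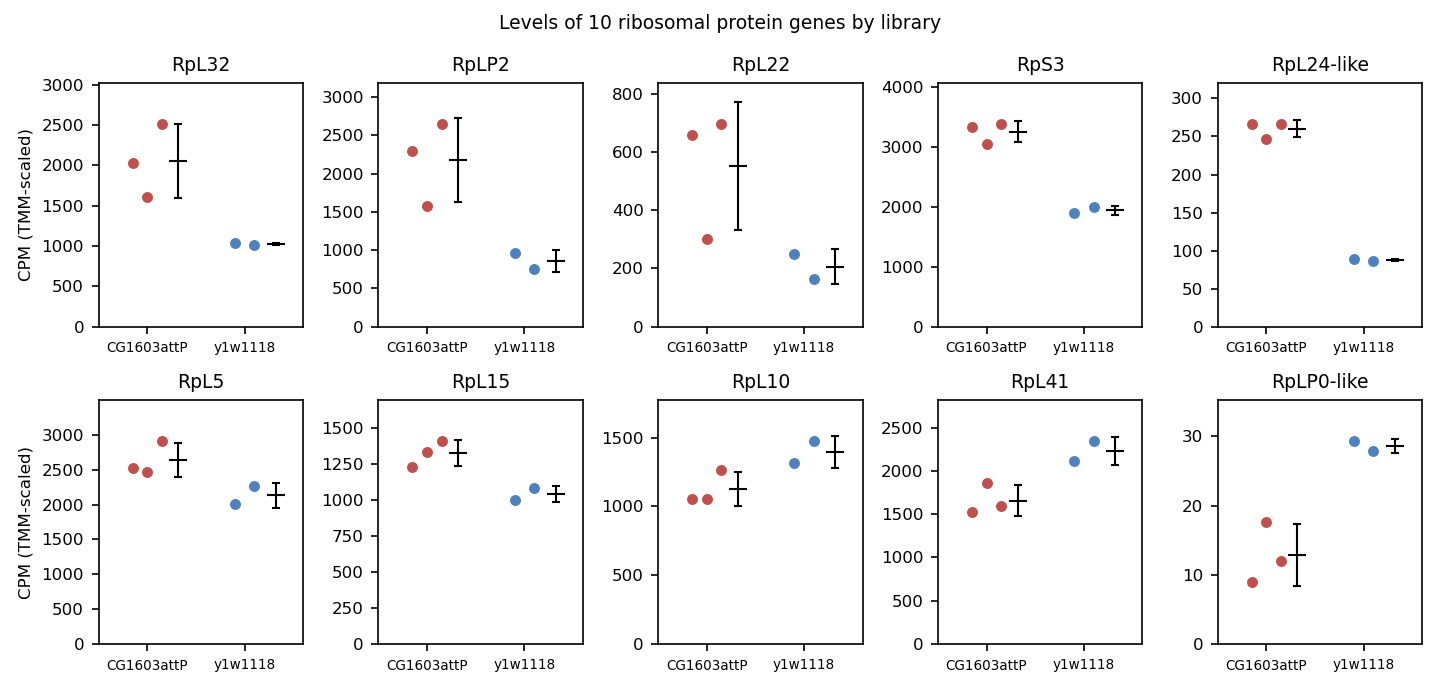
TMM-scaled CPM (y axis, from 0) of 10 members in each library, with CG1603attP (red, replicates 1 to 3 from left to right) left of y1w1118 (blue, replicates 1 and 2); black marks show mean and SD. RpL32, RpLP2, RpL22, RpS3, RpL24-like, RpL5 and RpL15 had all mutant libraries above the controls, and RpL10, RpL41 and RpLP0-like all below.

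RpL34b (1285, 861 and 1321 CPM against 662 and 480 CPM) rose by 1.02 on the log2 scale (adjusted p = 0.020). RpL11 and RpL5, which bind 5S ribosomal RNA together before they join the large subunit, differed in size of effect. RpL11 had 2213, 1876 and 2531 CPM in CG1603attP against 1234 and 1173 CPM in y1w1118, a rise of 0.87 (SE 0.16, adjusted p = 0.0087). RpL5 had 2531, 2470 and 2915 CPM in CG1603attP against 2003 and 2262 CPM in y1w1118, and was not called (log2 fold change 0.31, SE 0.14, adjusted p = 0.157). The difference between the 2 genes was not tested. The other large-subunit genes that rose were RpL4 (0.78), which lines the exit tunnel, RpL40 (0.76), made as a fusion with ubiquitin, and RpL13 (0.82), RpL6 (0.75), RpL12 (0.67), RpL27A (0.47) and RpL27 (0.45), with adjusted p between 0.013 and 0.045. RpL27 was the smallest change called, and its replicates were close, at 2216 ± 5.0 CPM in CG1603attP and 1623 ± 13.95 CPM in y1w1118 (SD, n = 3 and 2). RpL3, next to the peptidyl transferase centre, had a larger value (log2 fold change 0.81) but varied more, at 3610, 2201 and 4034 CPM in CG1603attP against 1971 and 1772 CPM in y1w1118, and was not called (adjusted p = 0.062).

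In the small subunit 10 of 31 single-copy or major genes rose, and the median over the 31 was 0.51. RpS21 had the largest value, with 404, 259 and 489 CPM in CG1603attP against 188 and 195 CPM in y1w1118 (log2 fold change 1.004, SE 0.26, adjusted p = 0.028). RpS26, which contacts the mRNA where it leaves the subunit, had 4090, 3179 and 3571 CPM against 2012 and 1892 CPM (0.89, adjusted p = 0.0076). RpS3, at the entry of the mRNA channel, had 3332, 3053 and 3392 CPM against 1894 and 1997 CPM. All 3 of these genes had every mutant library above every control library, and RpS3 had the smallest adjusted p of the 78, with a log2 fold change of 0.74 (SE 0.13, adjusted p = 0.0073). RpS30, whose human counterpart is made as a fusion with a ubiquitin-like protein, had 1074, 894 and 1006 CPM in CG1603attP against 623 and 528 CPM in y1w1118 (0.78, adjusted p = 0.0075). RpS16 (0.84), RpS7 (0.78), RpS5a (0.74), RpS15 (0.64), RpS27 (0.59) and RpS6 (0.53), the substrate of S6 kinase, completed the list, with adjusted p between 0.010 and 0.045. RpS18 had a log2 fold change of 0.86 without a call (adjusted p = 0.071), since its mutant libraries ranged from 682 to 1429 CPM.

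Other members had values near or below 0. RpL41, the smallest ribosomal protein, was the most abundant member per length in both genotypes. It had 1521, 1856 and 1597 CPM in CG1603attP against 2117 and 2349 CPM in y1w1118, so every mutant library lay below both controls (log2 fold change -0.43, SE 0.14, adjusted p = 0.061). DESeq2 (adjusted p = 0.0077), the current form of edgeR's fit (0.046) and the fit without CG1603attP replicate 2 (0.031) called it lower. RpL10, which joins the large subunit late in its maturation in yeast, had 1057, 1052 and 1267 CPM against 1316 and 1476 CPM (-0.31, adjusted p = 0.139). RpS3A, on chromosome 4, had 1865, 2186 and 2089 CPM against 2293 and 2616 CPM (-0.26, adjusted p = 0.205). In all 3 the groups did not overlap. The other 5 of the 8 negative values, for RpL39, RpL23, RpS27A, RpS13 and RpS15Aa, were between -0.19 and -0.0043 with overlapping libraries.

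Per kilobase of exon (RPKM, the CPM divided by exon length), RpL41 had 5181 ± 548 in CG1603attP and 6978 ± 513 in y1w1118 (SD, n = 3 and 2). RpL4 had 3680 ± 820 RPKM in CG1603attP and 2142 ± 235 RPKM in y1w1118, and RpL27A had 3554 ± 372 RPKM in CG1603attP and 2565 ± 28.7 RPKM in y1w1118. The median over the 78 genes was 1761 RPKM in CG1603attP and 1238 RPKM in y1w1118. The order was similar in both genotypes (Spearman's rho 0.87 over the 78 genes), and the log2 fold change fell slightly with the y1w1118 level (rho -0.36) and varied little with exon length (rho 0.15). These are descriptions over genes that share libraries, and the second shares the control libraries with both of its measures. The 3 genes with under 500 bp of exon had a median of -0.19 with 0 called, against 0.45 with 14 of 40 called from 500 to under 1000 bp and 0.52 with 12 of 35 at 1000 bp or more.

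The libraries of a genotype did not stand at 1 level. The median over the 78 genes was 1540, 1420 and 1658 CPM in CG1603attP replicates 1, 2 and 3, against 1197 and 1121 CPM in y1w1118 replicates 1 and 2. CG1603attP replicate 2 was the lowest mutant library for 60 of the 78 genes and replicate 3 the highest for 51, and y1w1118 replicate 1 exceeded replicate 2 for 63. Each mutant library on its own lay above both controls for most genes, in 65, 63 and 68 of the 78 for replicates 1, 2 and 3. The matching shares over all genes were not computed, and the 78 genes share the same libraries. Genes with a larger gap between the control libraries also had a larger gap between mutant replicates 1 and 3 and mutant replicate 2 (rho 0.55 over the 78 genes, a description, with no library on both sides). Replicate 3 of the mutant also had the most multimapping (10.6%) and ambiguous reads (6.26%), whose part in its values was not tested.

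The counter leaves out reads that fall on exons of more than 1 gene or map to several places, and this bears on the levels of some members. For 10 of the 78 genes at least 10% of the exon bases were shared with another gene, among them RpS9 (50.3%), RpL22 (34.3%), RpL23A (31.9%) and RpL37A (19.7%). RpS9 had the lowest level of the 78, 147 ± 30.1 RPKM in CG1603attP and 97.5 ± 0.78 RPKM in y1w1118, and reads on its shared bases are missing from that level. Of these 10 genes 4 were called higher, and among the other 68 the median log2 fold change was 0.45 with 22 called.

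Mzfp1 binds promoters, and the paper lists genes whose promoter overlaps a Mzfp1 peak of its embryo ChIP-seq, with or without the Mzfp1 motif. Those lists were not made from these RNA libraries. They hold embryo peaks only, and the paper detected Mzfp1 better in adults, so a member in no list may still have a peak. Of the 92 members 26 are in them. In euchromatin with the motif, RpS30, RpL32 and RpL12 of 12 were called higher, the median log2 fold change was 0.56, and RpL41 was among the other 9. In euchromatin without the motif, RpL22 and RpS5a of 10 were higher, with a median of 0.41. Of the 52 single-copy or major members in no list 21 were higher (40.4%, against 25.0% and 20.0% of those with a peak), with a median of 0.50. Differences between these groups were not tested, and 0 of the members with a peak in euchromatin were lower (RpL41 was, at an unadjusted p under 0.05). The members with the motif not named so far were RpS29 (0.44), RpL23A (0.52), RpS23 (0.17), RpL7A (0.72), RpS14a (0.60), RpS28b (0.04), RpS15Aa (-0.0043) and RpS10b (0.67), of which 0 were called, and those with a peak only were RpS4 (0.48), RpL36 (0.46), sta (0.39), RpL7 (0.32), RpL30 (0.43), RpL39 (-0.19), RpS27A (-0.10) and RpS3A (-0.26), likewise not called.

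In heterochromatin, as delimited in the paper, lie 5 members, RpL5, RpL10, RpL15, RpL38 and RpL21, and edgeR called 0 of them. Pericentric heterochromatin is compact and rich in repeats. RpL5 (2L, 22532279 to 22536884, minus strand) is the only member in the list of heterochromatin genes with the motif. In that list 17 of 23 genes were lower and 0 higher (18 and 0 at an unadjusted p under 0.05), the median was -1.92 on the log2 scale, and RpL5 (0.31) was 1 of 4 positive values. RpL15 (3L, 27267255 to 27268445, plus strand; peak without motif) had 1228, 1329 and 1409 CPM in CG1603attP against 999 and 1081 CPM in y1w1118, all mutant libraries above both controls. Its log2 fold change was 0.35 (SE 0.12, adjusted p = 0.077), and DESeq2 called it higher (0.34, adjusted p = 0.017). RpL38 (2R, 4515388 to 4516458, minus strand; peak without motif) had 234, 231 and 289 CPM against 203 and 255 CPM, and the groups overlapped (0.14, adjusted p = 0.571). RpL21 (2L, 22247111 to 22247875; no peak listed) had 884, 1070 and 1044 CPM against 986 and 1004 CPM, again with overlap (0.0062, adjusted p = 0.977). RpL10 (3L, 23093190 to 23095471; peak without motif) is given above with the lower values. At an unadjusted p under 0.05 the count of the 5 was 1 higher and 0 lower, for RpL15. RpL5 was called higher only with library size as the scaling (0.45, adjusted p = 0.048), which raises all genes.

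The 14 minor paralogs did not move as 1 group. Of the 9 with enough reads, RpL24-like and RpS14b rose, RpS19b and RpLP0-like fell, and 5 were not called. The filter leaves out genes that are low in nearly all libraries, so these 9 are not the whole set. RpS19b passed it only through the y1w1118 libraries, where it was higher. RpL24-like (3R, 11430740 to 11431582, minus strand) had the highest log2 fold change and the smallest adjusted p of all members. It had 3984, 3402 and 2521 reads in CG1603attP against 905 and 749 reads in y1w1118, which is 266, 247 and 267 CPM against 88.8 and 86.9 CPM. The replicates of each genotype were close together and the groups far apart. The rise was 2.96-fold (log2 fold change 1.57, SE 0.11, adjusted p = 0.00039), and the call was kept in all 18 alternatives. RpL24-like is the fly counterpart of yeast Rlp24, an assembly factor that holds the place of RpL24 on the immature large subunit. RpL24 itself did not separate the genotypes, with 1005, 750 and 1128 CPM in CG1603attP against 958 and 865 CPM in y1w1118 (0.08, adjusted p = 0.797). RpL24-like thus made up 20.9%, 24.8% and 19.1% of the reads of the pair in CG1603attP against 8.49% and 9.12% in y1w1118.

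RpLP0-like is the counterpart of yeast Mrt4, which holds the place of P0 during assembly, and it moved the other way. It had 134, 243 and 113 reads in CG1603attP against 299 and 240 reads in y1w1118, or 8.95, 17.6 and 12.0 CPM against 29.4 and 27.8 CPM. All mutant libraries lay below the controls, with replicate 2 the nearest to them. The log2 fold change was -1.15 (SE 0.31, adjusted p = 0.032), and the call was lost in 7 alternatives, which left out a library or 2 or used library size or a block. Its share of the pair with RpLP0 was 0.323%, 0.844% and 0.385% in CG1603attP against 1.37% and 1.49% in y1w1118.

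**Figure D4:**
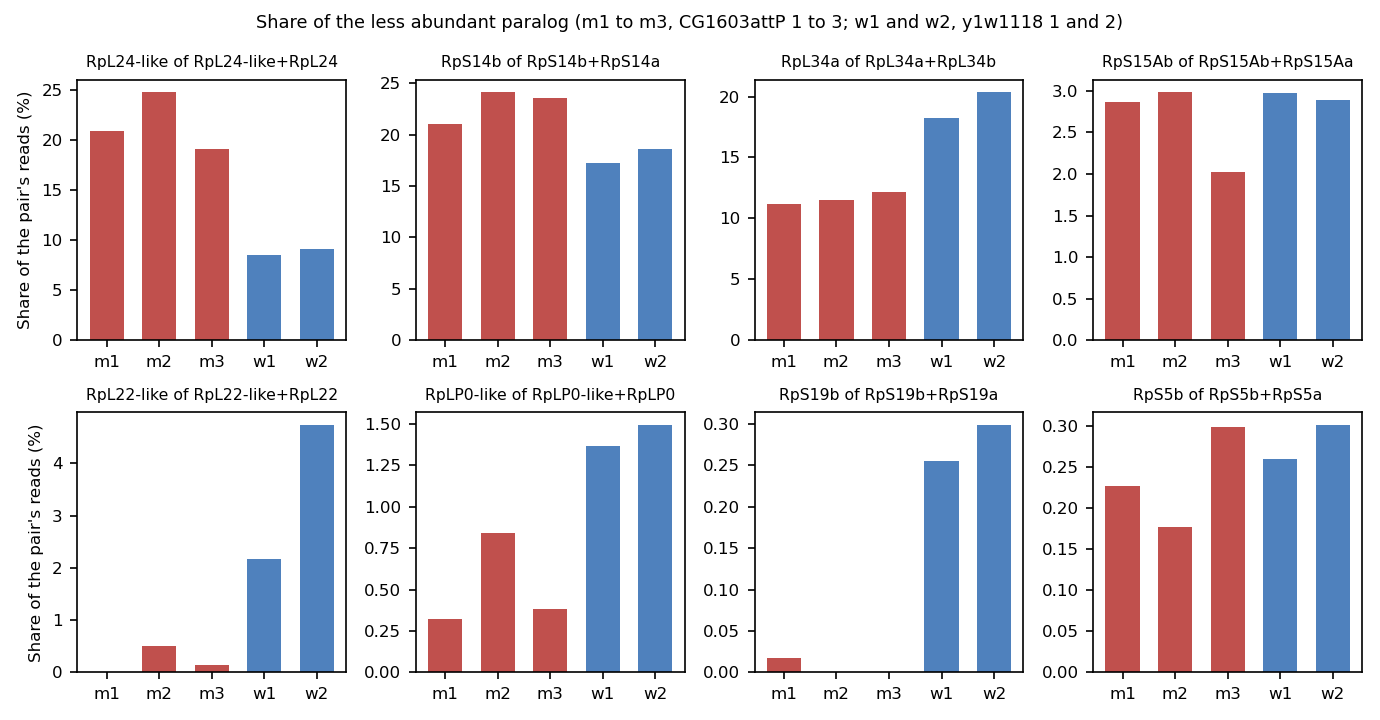
Share of the less abundant paralog in the reads of its pair (%, y axis, own scale from 0 in each panel) in CG1603attP replicates 1 to 3 (red) and y1w1118 replicates 1 and 2 (blue). The share was higher in every mutant library for RpL24-like and RpS14b, lower in every mutant library for RpL34a, RpL22-like, RpLP0-like and RpS19b, and overlapped for RpS15Ab and RpS5b.

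RpS14a and RpS14b are neighbours on the X chromosome and encode the same protein. RpS14b had 223, 185 and 276 CPM in CG1603attP against 111 and 112 CPM in y1w1118 (log2 fold change 1.03, SE 0.18, adjusted p = 0.0074), and RpS14a had 833, 580 and 893 CPM against 529 and 488 CPM (0.60, adjusted p = 0.065). Both had all mutant libraries above the controls. RpS14b held 21.1%, 24.1% and 23.6% of the pair in CG1603attP, against 17.3% and 18.7% in y1w1118. Reads that fit both copies are not counted, so the split between such near-identical genes is uncertain. In the RpL34 pair the major copy RpL34b rose (above) while RpL34a, with 162, 112 and 183 CPM against 147 and 122 CPM, overlapped (0.18, adjusted p = 0.597). The share of RpL34a was 11.2%, 11.5% and 12.2% in CG1603attP against 18.2% and 20.3% in y1w1118. RpS15Ab had a log2 fold change of -0.19 (adjusted p = 0.492) and held between 2.02% and 2.98% of its pair in CG1603attP and 2.98% and 2.89% in y1w1118.

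A further group is known for use in the gonads. RpS19b had 5, 0 and 0 reads in CG1603attP against 38 and 31 reads in y1w1118, and the test called it lower (log2 fold change -4.79, SE 1.30, adjusted p = 0.034). With 2 mutant libraries at 0, that size depends on the prior count of the fit. RpS19b passed the filter on low counts only through its y1w1118 libraries, so a call could hardly have gone the other way. The call was lost without CG1603attP replicate 2 (adjusted p = 0.055), y1w1118 replicate 1 (0.202) or y1w1118 replicate 2 (0.191), among others. A count of 0 allows up to 0.0135% and 0.0148% of the RpS19 pair in CG1603attP replicates 2 and 3 (3 reads, counting error only), where y1w1118 had 0.255% and 0.299%. RpL22-like, abundant in testis, had 0, 21 and 9 reads in CG1603attP against 56 and 70 reads in y1w1118, with no overlap and no call (-3.04, SE 1.18, adjusted p = 0.099). It was called lower by the current form of edgeR's fit (adjusted p = 0.014), by DESeq2 (0.033) and without CG1603attP replicate 1 (0.033). Its share of the RpL22 pair was 0%, 0.507% and 0.137% in CG1603attP, against 2.16% and 4.74% in y1w1118, and the 0 allows up to 0.0304%. RpS5b, with 79, 39 and 72 reads in CG1603attP against 36 and 32 reads in y1w1118, and RpS10a, with 13, 0 and 17 reads against 21 and 13 reads, overlapped and were not called (log2 fold change 0.53 and -1.03).
Germline genes were low in these larvae. Of 31 germline and testis markers found, 5 were at 0 in all libraries, 16 were tested, 1 rose (AGO3) and 0 fell at an adjusted p under 0.05 or at an unadjusted one (2 rose at the latter). Their summed level was 43.5, 52.4 and 44.0 CPM in CG1603attP against 47.5 and 51.2 CPM in y1w1118. AGO3 alone gave 12.6, 17.9 and 14.1 CPM of these sums in CG1603attP against 5.30 and 7.66 CPM in y1w1118. Among the 16 tested, vas, aub, piwi, bgcn and sa had every mutant library below both controls, as had 30.8% of all genes tested. AGO3, topi and achi had every mutant library above both, as had 28.9% of all genes tested. Both counts were thus near or below the shares over all genes. The germ cell helicase vas had 0, 20 and 0 reads in CG1603attP against 35 and 41 reads in y1w1118 (adjusted p = 0.201), and aub 10, 26 and 0 reads against 55 and 52 reads (adjusted p = 0.125). The part of such differences in RpS19b and RpL22-like was not tested.

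The remaining 5 members had too few reads. RpL10Aa had 0, 0 and 0 reads in CG1603attP against 1 and 1 in y1w1118, and RpL37-2 had 0, 0 and 0 against 2 and 2. RpS28a, RpS28-like and RpL7-like had 0 reads in all 5 libraries, where 3 reads were at most 0.348 CPM. For RpL7-like this says little, since 1771 of its 1793 exon bases are shared with CG34164 and reads there are set aside.

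Genes that work with the ribosome did not follow the members as 1 group. Of 10 elongation and release factors, eEF1alpha1 and eEF1alpha2 rose and eEF1delta, eEF5, eRF1 and eRF3 fell. Without CG1603attP replicate 3, 1 of the 10 was called higher and 4 were called lower. Fewer still were called without a y1w1118 library. The median of the 10 was then -0.059 (replicate 1 left out) and -0.28 (replicate 2 left out), against -0.14 with all libraries. eEF1alpha1, which brings aminoacyl-tRNA to the ribosome, had 23625, 20025 and 23136 CPM in CG1603attP against 14198 and 13049 CPM in y1w1118 (log2 fold change 0.71, adjusted p = 0.033). eEF1delta, a subunit of its exchange factor, had 36.4, 54.0 and 46.6 CPM against 191 and 205 CPM (-2.12, adjusted p = 0.00064), and eEF5, the fly eIF5A, had 388, 417 and 437 CPM against 1121 and 1198 CPM (-1.49, adjusted p = 0.00045). The groups were apart for all 3. Of 8 ribosome-associated proteins only the chaperone Hsc70-4 was called, higher by 0.76 (adjusted p = 0.028), but 0 of the 8 were called without CG1603attP replicate 3, y1w1118 replicate 1 or y1w1118 replicate 2. Rack1, which is bound to the small subunit, had 0.61 (adjusted p = 0.059). The share of these 8 called higher was near the 14.6% of all genes. Of 17 ribosome assembly factors 8 fell and 0 rose (12 and 0 without adjustment, median -0.59), among them Polr1B of RNA polymerase I (-1.12, adjusted p = 0.0062) and Nop60B, a pseudouridine synthase (-0.97, adjusted p = 0.0036). The members RpL24-like, which rose, and RpLP0-like, which fell, are not in that list. That list was shortened by pes and bonsai after its values were seen, and with both in it 9 of 19 fell and pes rose. Of the 17, the number called lower was 3 without y1w1118 replicate 1, 1 without y1w1118 replicate 2 and 5 without CG1603attP replicate 1 or replicate 2, and it was 0 without both CG1603attP replicate 1 and y1w1118 replicate 2 (median -0.47).

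Among 19 regulators of growth and of these promoters 1 rose and 1 fell. Both counts were under the shares over all genes, 14.6% higher and 15.7% lower. Thor, the translation repressor 4E-BP, rose by 0.86 (adjusted p = 0.030), and Chro, a chromatin protein, had a log2 fold change of -0.75 (adjusted p = 0.013). Xrp1, the transcription factor that responds to loss of a ribosomal protein gene in Minute flies, was at 1125, 1117 and 997 CPM in CG1603attP against 1093 and 883 CPM in y1w1118, with overlap (0.13, adjusted p = 0.541). Of 9 genes tested of that response 3 rose, namely Irbp18, its partner (1.32, adjusted p = 0.020), GstE6 (1.67, adjusted p = 0.0015) and upd3 (2.42, adjusted p = 0.0074), and 0 fell (4 and 0 without adjustment). Without y1w1118 replicate 1, or without replicate 2, 1 gene of that response was called, and none of the 19 regulators was. Over the mitochondrial ribosomal protein genes the median was -1.30 on the log2 scale, and 52 of the 71 tested fell while 0 rose; without adjustment, p was under 0.05 for 57 lower and 0 higher genes. Without y1w1118 replicate 1 the number called lower was 21 and without replicate 2 it was 19, with medians of -1.29 and -1.28.

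**Figure D5:**
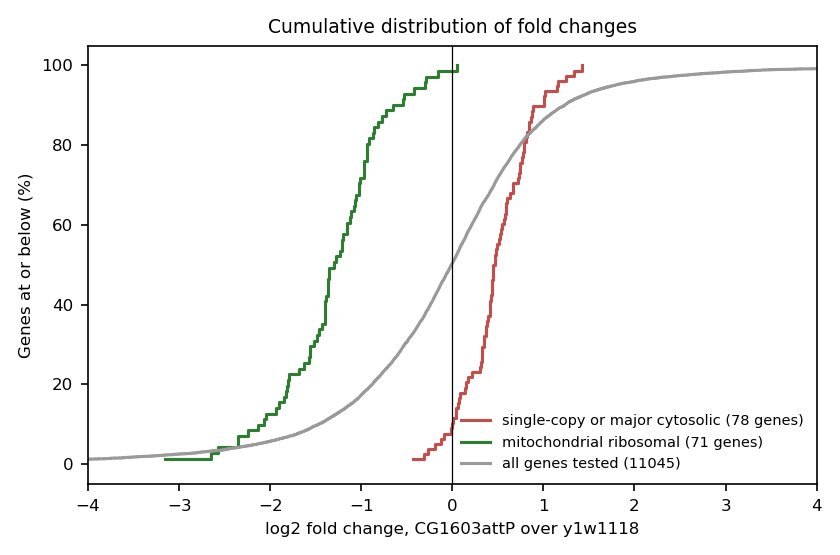
Cumulative share of genes (%, y axis) at or below each log2 fold change of CG1603attP over y1w1118 (x axis) for the 78 single-copy or major cytosolic members (red), 71 mitochondrial ribosomal protein genes (green) and all 11045 genes tested (grey). The medians were 0.46 for the cytosolic members, -1.30 for the mitochondrial genes and -0.011 for all genes.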

How the data were processed

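For each library the authors deposited the raw read counts of every gene, made by STAR (GeneCounts) on dm6 after trimming and not normalized. Tool versions and the annotation used for counting are not given in the sources used here. The unstranded counts were used. The kit does not mark strand, so reads of a gene and of an antisense partner cannot be told apart. The 4 summary lines (unmapped, 23.8% to 30.0% of a library; multimapping, 5.58% to 10.6%; no feature, 4.15% to 6.22%; ambiguous, 3.28% to 6.26%) and 138 ribosomal RNA genes stayed out of library sizes and tests. Symbols and dm6 positions came from Ensembl release 115, and 138 of 17735 identifiers had no symbol.

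In R 4.3.3, edgeR 4.0.16 was fitted to all genes and 5 libraries (filterByExpr with minimum count 10 and total 15, TMM, estimateDisp, glmQLFit in its legacy form, glmQLFTest, Benjamini-Hochberg over 11045 genes, threshold 0.05), as in the paper, whose text states no filter. Standard errors were obtained from each log2 fold change and the square root of its F value. CPM are TMM-scaled, and 1 read was at most 0.116 CPM. RPKM divide them by exon length. The fit was tested on simulated data. P-values measure the spread between these libraries, and floors of 3 reads cover counting error only.

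The members and all gene lists were chosen with earlier results of these data known, so lists are described by counts and medians without a test. After their values were seen, pes (a scavenger receptor gene) and bonsai (a mitochondrial ribosomal protein gene) were taken out of the assembly factors as wrongly listed, and ERR out of the genes of the response to ribosomal protein loss, where its place was not certain. The rule for named genes took RpL32, the members in heterochromatin, in the lists of Mzfp1 peaks or in paralog sets, those called (full statistics for the 6 with the largest change each way), those under the filter, and the 3 most abundant per length, of which 1 is not reported here; RpS3, RpS26, RpS30, RpL3, RpL11, RpS18 and related genes with values were added after their values were seen. Alternatives were the current and robust fits, DESeq2 1.42.0, scaling by RLE, by upper quartiles, by library size alone or by TMM without the members, 2 other filters, ribosomal RNA kept, a stranded column, left-out libraries and a replicate block. No genome, promoter or protein sequence was used here.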

Additional observations from a re-analysis of the deposited data

How the results depend on the processing

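The median log2 fold change of the members was positive in every alternative, from 0.35 to 0.59, and stood 0.34 to 0.57 above that of all genes; no named gene that was called changed sign. The number of members called was less stable, and was set by the 5 libraries more than by other choices. When a CG1603attP library was left out, higher members numbered between 17 and 54 and lower members between 1 and 2. Without a y1w1118 library the members were not called higher more often than all genes. The median ran between 0.38 and 0.57 when any library was left out. In these fits the log2 fold change of RpL32 ran between 0.86 and 1.17 (0.82 with the replicate block, its lowest value), and its call was lost without y1w1118 replicate 1 (1.01, adjusted p = 0.0783) or replicate 2 (0.97, adjusted p = 0.0854). Without CG1603attP replicate 1 and y1w1118 replicate 2, which the moult markers set apart, the median was 0.35. The share of members called higher was then close to that of all genes. DESeq2 gave 54 higher and 4 lower members (2024 and 2037 of all 11045 genes). The current quasi-likelihood fit gave 37 and 4 (1658 and 1961). Library size only gave 58 and 1 (2080 and 1424), with a median of 0.59. With 2 control libraries, leaving 1 out leaves a lone control that is assumed to vary like the mutant libraries. The cause of the other differences was not tested. The 28 genes called higher were all among those called with DESeq2, RLE, upper-quartile and library-size scaling, both other filters and the stranded column, and 27 of them with the robust fit. Depth limits the low paralogs, of which 5 had too few reads to be tested.

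The replicate numbers are shared by the genotypes, but no source says that they mark a shared origin, so they were not taken as pairs. The deviations of same-numbered libraries correlated at -0.47 for number 1 and -0.24 for number 2 over all genes, but at 0.51 and 0.56 over the members. With the replicate block, 23 members were higher (22 of them called without it) and 0 lower, and the median was 0.38. Of all 11045 genes, 1393 were higher and 1574 lower with the block.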
